A study of Homo sapiens with 18 samples.

Results

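The interferon response was followed through 9 genes, STAT2, IRF9, IRF1, IRF7, IFIT1, IFIT2, IFIT3, ISG15 and IFI6, taken by symbol from the 26249 genes measured in every library. Expression was measured by QuantSeq, an RNA-seq method that reads the 3′ ends of transcripts. It is given as FPKM (fragments per kilobase of transcript, scaled between libraries by the authors' normalization). The 18 libraries came from 2 lines that the labels call XG1 and AMO1 and give as multiple myeloma, a cancer of plasma cells, both grown in RPMI medium with 10% serum. Each line had 3 libraries after 6 h in the solvent DMSO, 3 after 6 h with 100 nM YKL-5-124 and 3 after 6 h with 1000 nM. YKL-5-124 is a covalent inhibitor of CDK7, a kinase of the transcription initiation machinery. The labels name no interferon treatment in any group. The labels do not say that the 3 libraries of a group came from separate cultures, so the p-values measure spread among libraries that may be no more than technical repeats.

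Interferons are secreted proteins that cells release on sensing viral nucleic acid. Type I interferons bind the IFNAR1 and IFNAR2 receptor chains, whose JAK kinases phosphorylate STAT factors, and STAT2 with a STAT partner and IRF9 then forms the complex ISGF3, which binds the interferon-stimulated response element (ISRE) of antiviral genes. Interferon gamma acts through its own receptor and a STAT dimer that binds the gamma-activated site (GAS), for which IRF1 is a classical target. In plasma cell cancers IRF factors also belong to the transcription factor network of the cell type.

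The promoter sequences are shown because they hold the letters through which these genes are known to be read. RefSeq windows of 300 bases, from 250 before to 50 after a transcription start, were found for 7 of the 9 genes in build GRCh38.p14, with 2 starts for IFIT3. The ISRE core was searched as GAAA, any 2 bases and GAAA again, and the GAS core as TTCNNNGAA, on both strands, and capitals mark the matches. The first window of IFIT3 is shown.
IFIT1 promoter, GRCh38.p14 chr10:89392373-89392672, plus strand: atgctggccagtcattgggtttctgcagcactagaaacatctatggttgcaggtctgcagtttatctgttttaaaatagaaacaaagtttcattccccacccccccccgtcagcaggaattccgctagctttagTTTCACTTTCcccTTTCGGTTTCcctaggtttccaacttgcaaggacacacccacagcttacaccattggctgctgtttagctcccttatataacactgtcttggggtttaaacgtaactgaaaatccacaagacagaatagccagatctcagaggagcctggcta
IFIT3 promoter, GRCh38.p14 chr10:89327747-89328046, plus strand: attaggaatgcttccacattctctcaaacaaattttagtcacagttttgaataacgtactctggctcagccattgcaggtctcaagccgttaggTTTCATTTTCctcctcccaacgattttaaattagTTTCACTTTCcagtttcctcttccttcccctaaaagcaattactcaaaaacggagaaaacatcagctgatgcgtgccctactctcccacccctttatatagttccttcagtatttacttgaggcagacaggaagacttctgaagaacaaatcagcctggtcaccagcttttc
ISG15 promoter, GRCh38.p14 chr1:1013247-1013546, plus strand: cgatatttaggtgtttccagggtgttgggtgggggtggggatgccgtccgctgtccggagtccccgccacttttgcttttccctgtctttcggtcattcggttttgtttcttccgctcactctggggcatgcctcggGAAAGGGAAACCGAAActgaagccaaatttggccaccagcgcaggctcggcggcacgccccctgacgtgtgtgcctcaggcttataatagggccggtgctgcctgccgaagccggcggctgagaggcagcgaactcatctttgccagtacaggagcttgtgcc
IFI6 promoter, GRCh38.p14 chr1:27672143-27672442, minus strand: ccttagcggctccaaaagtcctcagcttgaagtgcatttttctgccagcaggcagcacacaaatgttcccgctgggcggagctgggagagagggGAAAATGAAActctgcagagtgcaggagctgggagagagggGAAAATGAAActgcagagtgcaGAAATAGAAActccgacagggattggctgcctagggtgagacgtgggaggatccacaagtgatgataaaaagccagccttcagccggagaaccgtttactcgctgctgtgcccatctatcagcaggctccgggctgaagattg
IRF1 promoter, GRCh38.p14 chr5:132490724-132491023, minus strand: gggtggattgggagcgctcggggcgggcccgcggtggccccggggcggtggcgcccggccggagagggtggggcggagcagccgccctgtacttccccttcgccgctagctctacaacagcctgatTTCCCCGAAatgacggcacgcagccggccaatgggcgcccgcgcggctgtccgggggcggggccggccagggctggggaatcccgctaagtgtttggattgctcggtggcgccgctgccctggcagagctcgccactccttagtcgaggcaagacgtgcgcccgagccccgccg
IRF9 promoter, GRCh38.p14 chr14:24161015-24161314, plus strand: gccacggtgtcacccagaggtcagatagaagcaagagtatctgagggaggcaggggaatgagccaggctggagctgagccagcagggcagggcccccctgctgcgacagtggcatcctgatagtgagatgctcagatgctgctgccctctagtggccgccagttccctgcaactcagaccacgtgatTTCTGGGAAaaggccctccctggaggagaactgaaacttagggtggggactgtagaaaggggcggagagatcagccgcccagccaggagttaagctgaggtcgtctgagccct

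The ISRE core stood in 5 of the 8 windows, those of 4 genes, and in 3.57% of the 35116 promoter windows of the same length. IFIT1 held 2 copies on the minus strand of the window, the nearer at -103 to -94 from the start. IFIT3 held 2 copies in each of its windows. The 2 copies in ISG15 overlapped, at -113 to -104 and -107 to -98, and IFI6 held 3, of which 2 had the same letters. The GAS core stood once in IRF1, at -124 to -116, and once in IRF9, at -63 to -55, against 7.66% of all windows. STAT2 held neither motif in this window. These are matches of letters, and no binding was measured.

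Before the results, the labelled cell type was set against its markers. The 9 AMO1 libraries held plasma cell transcripts, with 8 of 9 markers at 10 FPKM or more in every library and a summed level of 4686 to 7038 FPKM. In the 9 libraries labelled XG1 the same markers summed to 43.8 to 75.69 FPKM, and IRF4, PRDM1, CD38 and SLAMF7 were below 1 FPKM in all 9. Those libraries held 9 of 10 erythroid markers at 10 FPKM or more in every library, with sums of 3594 to 4299 FPKM against 24.47 to 68.32 in AMO1. Every result for XG1 below is therefore a result for the libraries labelled XG1, whose markers go against a plasma cell label. T cell markers summed to at most 2.057 FPKM in XG1 and 3.576 in AMO1. Myeloid and dendritic markers, from cells that can carry strong interferon programmes, summed to 31.98 to 37.88 FPKM in XG1 DMSO, 28.14 to 32.91 at 100 nM and 19.67 to 27.06 at 1000 nM, with 5 of 7 (CD14, CSF1R, FCGR3A, CLEC4C and LILRA4) below 1 FPKM throughout. All 7 were below 1 FPKM in AMO1. Markers also moved with treatment. Plasma cell sums in AMO1 ran from 5073 to 7038 FPKM in DMSO, 5564 to 6417 at 100 nM and 4686 to 5321 at 1000 nM, and erythroid sums in XG1 from 4079 to 4299, 3880 to 4011 and 3594 to 4253 FPKM. In XG1, KLF1, an erythroid transcription factor, fell by 1.56 log2 at 100 nM and by 1.92 at 1000 nM (limma, adjusted p = 1.23e-04 and 6.09e-06), and GATA1, EPOR, XBP1 and LYZ were also called lower at 1000 nM. In AMO1, SLAMF7 fell by 0.94 log2 at 100 nM and by 1.17 at 1000 nM (adjusted p = 0.0154 and 6.58e-04), and TNFRSF17, IRF4 and TFRC were called lower at 1000 nM. No marker was called higher with treatment. The part of these markers in the results was not tested. In such bulk libraries fewer cells of a type and less RNA per cell cannot be told apart.

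With YKL-5-124, IRF1 transcripts fell in AMO1 and IFIT1 and IFIT3 transcripts fell in the XG1 libraries. Of the 8 genes that could be tested, 2 fell at each dose in XG1 and 1 fell at each dose in AMO1, and none rose. This split changed under 2 of the 3 other scalings. Median centring and quantile normalization each gave 1 higher and 2 lower in XG1 at 100 nM. In AMO1 at 1000 nM each gave 2 higher (STAT2 and IFI6) and 1 lower. Scaling to the spike-in RNAs kept the split, with 0 higher and 2 lower at each dose in XG1 and 0 higher and 1 lower at each dose in AMO1. The median deviation of the spike-in RNAs was only -0.078 to 0.073 log2 by library. Spike-in scaling therefore hardly changes the values and is no separate check. Of all 12204 tested genes, 3.98% were called lower and 2.63% higher in XG1 at 100 nM, and 15.7% lower and 1.9% higher at 1000 nM. In AMO1 these shares were 1.76% lower and 0.434% higher at 100 nM, and 15.4% lower and 1.78% higher at 1000 nM. A gene was called at an adjusted p under 0.05 from limma with Benjamini-Hochberg adjustment over all tested genes, on log2(FPKM + 1), a scale that understates the change of low genes. A gene was tested when at least 1 group had a mean of 1 FPKM or more. IFIT1 and IFIT3 met that condition only through XG1 DMSO, the group where they were high, so their difference from DMSO was partly built into the test, and the counts of called genes are no support for a direction. IRF7 met it only through the 3 XG1 groups, and IFIT2 did not meet it. The 2 doses in a line were compared with the same DMSO libraries.

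**Figure D1:**
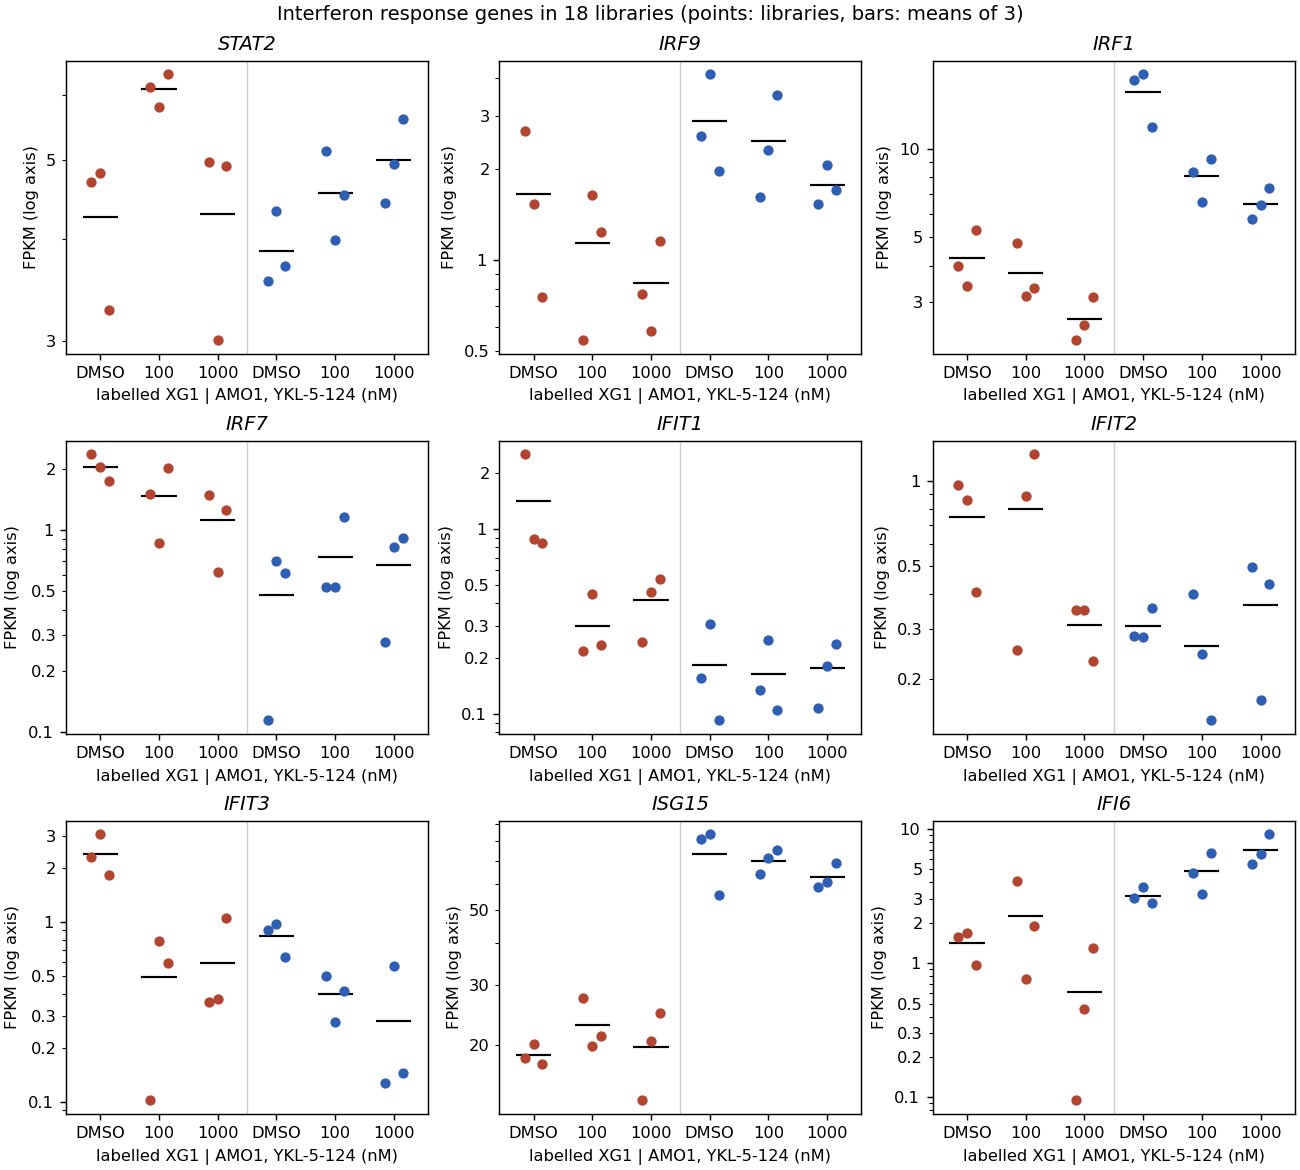
FPKM on a log axis (y) of each of the 9 genes in the 18 libraries, grouped by dose (x), with the libraries labelled XG1 on the left of each panel and AMO1 on the right; points are libraries and bars are means of 3. IFIT1 and IFIT3 are highest in XG1 DMSO, IRF1 is highest in AMO1 DMSO, and the AMO1 points of ISG15 all lie above the XG1 points.

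Neither subunit of the ISGF3 complex among the members was called at any dose. STAT2, the ISGF3 subunit with the activation domain, was measured at 4.70, 4.81 and 3.27 FPKM in XG1 DMSO, at 6.14, 5.81 and 6.37 FPKM with 100 nM and at 4.97, 3.01 and 4.91 FPKM with 1000 nM. The 3 libraries at 100 nM were the highest of all 18 and did not overlap the other XG1 groups. The difference of 0.45 ± 0.18 log2 (SE) at 100 nM did not pass the test (limma, adjusted p = 0.160), and at 1000 nM it was -0.00047 (adjusted p = 0.999). In AMO1, STAT2 stood at 3.86 ± 0.415 FPKM in DMSO, 4.55 ± 0.571 at 100 nM and 4.99 ± 0.599 at 1000 nM (SD, n = 3 each). The lowest library at 1000 nM, 4.42 FPKM, was just above the highest in DMSO, 4.33 FPKM, and the difference of 0.30 log2 was not called (limma, adjusted p = 0.288). With the median of every library set to the same value (median centring), STAT2 was called higher in XG1 at 100 nM (adjusted p = 0.0224) and in AMO1 at 1000 nM (adjusted p = 0.00395), both by limma.

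IRF9, the DNA-binding subunit of ISGF3, ranged from 0.540 to 2.68 FPKM over the XG1 libraries and from 1.53 to 4.12 FPKM over the AMO1 libraries. Its group means were 1.66 ± 0.969, 1.14 ± 0.557 and 0.835 ± 0.293 FPKM from DMSO to 1000 nM in XG1, and 2.88 ± 1.11, 2.48 ± 0.970 and 1.77 ± 0.269 FPKM in AMO1 (SD, n = 3 each). Every neighbouring pair of groups overlapped, and no dose was called in either line (limma, adjusted p 0.241 to 0.880).

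IRF1, a transcription factor induced by interferon gamma and a known activator of antigen presentation genes, was the member that fell in AMO1. It was measured at 17.2, 17.99 and 11.9 FPKM in DMSO, at 8.35, 6.57 and 9.25 FPKM with 100 nM and at 5.76, 6.42 and 7.36 FPKM with 1000 nM. Every treated library was below every DMSO library, and the treated groups overlapped each other. The fall was -0.87 ± 0.20 log2 at 100 nM (SE; limma, adjusted p = 0.0231) and -1.14 ± 0.20 at 1000 nM (adjusted p = 7.53e-04). The call at 1000 nM held in all 28 alternatives. The call at 100 nM ended in 9 of 28, among them the fit of the 2 groups alone (adjusted p = 0.098) and the fits without AMO1 DMSO replicate 1 (-0.80 log2, adjusted p = 0.117), DMSO replicate 2 (-0.77, 0.129), 100 nM replicate 1 (-0.90, 0.0657) or 100 nM replicate 2 (-0.75, 0.135).

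In XG1, IRF1 was lower than in AMO1 throughout, at 3.995, 3.41 and 5.29 FPKM in DMSO, 4.79, 3.14 and 3.35 FPKM with 100 nM and 2.22, 2.51 and 3.12 FPKM with 1000 nM. The libraries at 1000 nM lay below both other XG1 groups without overlap, by a narrow margin against 100 nM. The difference from DMSO was -0.52 ± 0.20 log2 (SE) and was not called (limma, adjusted p = 0.0754), although without AMO1 DMSO replicate 3 in the fit it was (adjusted p = 0.0473). At 100 nM it was -0.14 log2 (adjusted p = 0.789). The responses of the lines differed by 0.73 log2 at 100 nM and 0.61 at 1000 nM, XG1 minus AMO1, and neither difference was called (limma, adjusted p = 0.421 and 0.459).

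IRF7, which amplifies type I interferon production, was detected above 1 FPKM mainly in XG1. Its libraries held 2.37, 2.04 and 1.75 FPKM in XG1 DMSO, 1.51, 0.866 and 2.04 FPKM with 100 nM and 1.48, 0.617 and 1.25 FPKM with 1000 nM. The 1000 nM libraries were all below DMSO, whereas those at 100 nM overlapped it. The differences from DMSO were -0.33 and -0.55 ± 0.23 log2 (limma, adjusted p = 0.465 and 0.108). AMO1 values spanned 0.114 to 1.16 FPKM with overlap between every pair of neighbouring groups, and no dose was called (adjusted p = 0.707 and 0.679).

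**Figure D2:**
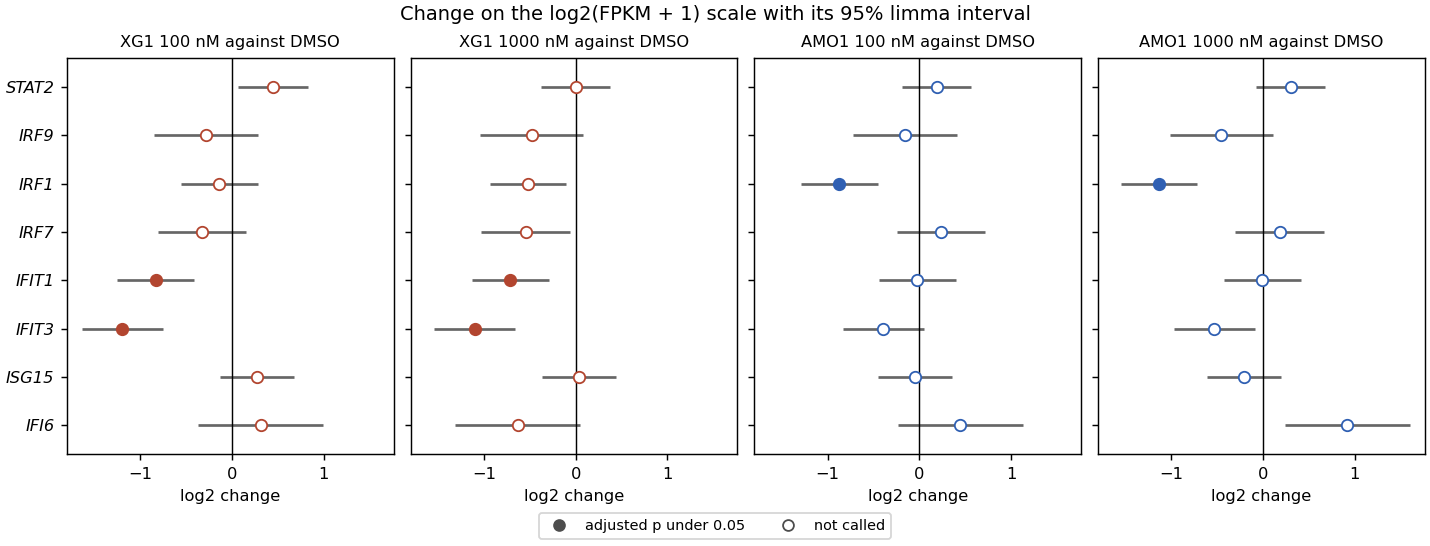
Change from DMSO on the log2(FPKM + 1) scale (x) of the 8 tested genes (y) at each dose and line, with 95% limma intervals as bars and filled points for an adjusted p under 0.05. IFIT1 and IFIT3 are filled in both XG1 panels, at -0.83 and -1.20 for 100 nM and -0.71 and -1.10 for 1000 nM, and IRF1 in both AMO1 panels, at -0.87 and -1.14.

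The IFIT genes encode antiviral proteins that bind foreign RNA and lie beside each other on chromosome 10. IFIT3, a partner that stabilises IFIT1, was measured at 2.29, 3.06 and 1.82 FPKM in XG1 DMSO, at 0.102, 0.790 and 0.589 FPKM with 100 nM and at 0.361, 0.373 and 1.05 FPKM with 1000 nM. All 3 DMSO libraries lay above all 6 treated libraries, and the treated groups overlapped. The falls were -1.20 ± 0.21 and -1.10 ± 0.21 log2 (SE; limma, adjusted p = 0.00159 and 0.00149), and both calls held in each of the 27 alternatives in which the gene was tested. Because the gene entered the test only through XG1 DMSO, the fit with no filter is given too, in which the adjusted p was 0.00521 and 0.00443. In AMO1, IFIT3 was lower to begin with, at 0.902, 0.974 and 0.636 FPKM in DMSO, 0.499, 0.279 and 0.416 FPKM with 100 nM and 0.128, 0.568 and 0.146 FPKM with 1000 nM. The treated AMO1 libraries also lay below DMSO without overlap. The differences there, -0.39 and -0.53 ± 0.21 log2, were not called (limma, adjusted p = 0.401 and 0.0895), and the lines' responses were not shown to differ (adjusted p = 0.383 and 0.560).

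IFIT1, which binds RNA that lacks a methylated cap, was measured at 2.53, 0.888 and 0.842 FPKM in XG1 DMSO, at 0.220, 0.449 and 0.235 FPKM with 100 nM and at 0.247, 0.455 and 0.539 FPKM with 1000 nM. Replicate 1 of DMSO stood well above the other two, which were themselves above every treated library. The falls were -0.83 ± 0.20 log2 at 100 nM and -0.71 ± 0.20 at 1000 nM (SE; limma, adjusted p = 0.0165 and 0.0189; 0.0304 and 0.0334 in the fit with no filter). Without DMSO replicate 1 no group mean reached 1 FPKM and the gene left the test. The call at 100 nM ended without 100 nM replicate 1 (-0.79, adjusted p = 0.0601) or 3 (-0.80, 0.0593) and in the fit of the 2 groups alone (-0.83, 0.0892). That at 1000 nM ended without 1000 nM replicate 1 (-0.62, adjusted p = 0.0688), in the fit of the 2 groups alone (-0.71, 0.117) and after centring on the library median (-0.46, 0.144). AMO1 held 0.0925 to 0.306 FPKM in its 9 libraries, close to the commonest low values in the files (0.0745 to 0.1335 FPKM by library), where little room is left for a fall. The 95% interval of its change in AMO1 ran from -0.44 to 0.40 log2 at 100 nM and from -0.43 to 0.41 at 1000 nM.

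IFIT2, the third of the family, was below the 1 FPKM condition in every group. XG1 held 0.971, 0.855 and 0.407 FPKM in DMSO, 0.253, 0.889 and 1.24 FPKM with 100 nM and 0.352, 0.351 and 0.232 FPKM with 1000 nM. Its 100 nM libraries spread over nearly the whole XG1 range, while all 3 at 1000 nM were below DMSO. In the fit with no filter, over 26249 genes, the difference was 0.015 log2 at 100 nM and -0.40 ± 0.18 at 1000 nM (SE; limma, adjusted p = 0.977 and 0.272). AMO1 ranged from 0.143 to 0.497 FPKM with no called dose (adjusted p = 0.917 and 0.883).

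ISG15, a ubiquitin-like protein joined to other proteins during the antiviral response, was called at neither dose in either line. It was measured at 18.2, 20.03 and 17.6 FPKM in XG1 DMSO, at 27.5, 19.8 and 21.2 FPKM with 100 nM and at 13.7, 20.4 and 24.8 FPKM with 1000 nM. The 3 groups overlapped, and the differences of 0.27 and 0.04 ± 0.19 log2 were not called (limma, adjusted p = 0.480 and 0.944). AMO1 held 81.1, 83.9 and 55.7 FPKM in DMSO, 63.9, 71.5 and 75.2 FPKM with 100 nM and 58.6, 60.8 and 69.2 FPKM with 1000 nM. Replicate 3 of AMO1 DMSO was the lowest AMO1 library, the groups overlapped, and no dose was called (adjusted p = 0.975 and 0.541). The 95% interval of the change at 1000 nM ran from -0.37 to 0.44 log2 in XG1 and from -0.61 to 0.20 in AMO1.

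IFI6, a mitochondrial and endoplasmic reticulum protein that restrains cell death and virus replication, had its highest values in AMO1 at 1000 nM. Its AMO1 libraries held 3.06, 3.73 and 2.80 FPKM in DMSO, 4.67, 3.30 and 6.58 FPKM with 100 nM and 5.47, 6.52 and 9.12 FPKM with 1000 nM. All 3 libraries at 1000 nM were above DMSO, whereas the 100 nM libraries overlapped both. The difference at 1000 nM, 0.92 ± 0.32 log2 (SE), was not called (limma, adjusted p = 0.0592), and at 100 nM it was 0.45 (adjusted p = 0.568). It was called in 9 of 28 alternatives, among them the fit of the 2 groups alone (adjusted p = 0.0136), median centring (1.21 log2, 0.0185) and each fit that left out XG1 100 nM replicate 1 (0.0264) or 2 (0.0292) or XG1 1000 nM replicate 1 (0.0497) or 3 (0.0421).

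In XG1, IFI6 was measured at 1.57, 1.68 and 0.962 FPKM in DMSO, at 4.08, 0.765 and 1.88 FPKM with 100 nM and at 0.0948, 0.454 and 1.29 FPKM with 1000 nM. The libraries of 1 group differed widely among themselves and the groups overlapped. The differences from DMSO were 0.31 and -0.63 ± 0.32 log2 (limma, adjusted p = 0.665 and 0.197). The response to 1000 nM was 1.55 ± 0.46 log2 (SE) lower in XG1 than in AMO1, the largest line difference among the 8 tested genes at that dose, and it was not called (unadjusted p = 0.00334, adjusted p = 0.145 by limma).

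Going from 100 to 1000 nM, none of the 8 genes was called in either line by limma, against 0.139% of all tested genes in XG1 and 0.18% in AMO1. Two-sided unadjusted p-values were under 0.05 for 2 of the 8 in XG1 and 0 in AMO1, beside 16.3% and 10.5% of all tested genes. Those in XG1 were IFI6, at -0.94 log2 (adjusted p = 0.178), and STAT2, at -0.45 (adjusted p = 0.237). The difference between the lines' responses was called for none of the 8 at either dose by limma, where 0.156% of all tested genes were called at 100 nM and 0.68% at 1000 nM. Unadjusted p-values were under 0.05 for 3 of 8 at 100 nM and 4 of 8 at 1000 nM, beside 8.78% and 10.1% of all tested genes; the IFIT1, IFIT3 and IRF7 differences among them carry the limit of the filter given above.

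Between the lines in DMSO, 3 of the 8 tested genes were higher in XG1 and 3 were lower, against 28.3% and 34.4% of all tested genes, so a share this large is common between these libraries. Higher in XG1 were IRF7 (1.07 ± 0.23 log2, adjusted p = 4.37e-04), IFIT1 (0.97 ± 0.20, adjusted p = 3.16e-04) and IFIT3 (0.87 ± 0.21, adjusted p = 0.00125), all by limma, with SE. These 3 are the genes that entered the test only through XG1 groups. Lower in XG1 were ISG15, at 18.6 ± 1.27 against 73.6 ± 15.5 FPKM (-1.91 ± 0.19 log2, adjusted p = 3.75e-08), and IRF1, at 4.23 ± 0.962 against 15.7 ± 3.34 FPKM (-1.67 ± 0.20, adjusted p = 3.77e-07). IFI6 was lower by a smaller amount, at 1.40 ± 0.386 against 3.20 ± 0.481 FPKM (-0.81 ± 0.32, adjusted p = 0.0369). That call ended in 8 of 28 alternatives, among them the fits without XG1 DMSO replicate 1 (-0.87, adjusted p = 0.0559) or 3 (-0.67, 0.124) and without AMO1 DMSO replicate 1 (-0.83, 0.0681), 2 (-0.72, 0.109) or 3 (-0.88, 0.0518). STAT2 was not called between the lines (0.10 log2, adjusted p = 0.642; 95% interval -0.28 to 0.48), and IRF9 was at -0.57 log2 (adjusted p = 0.0707), called without XG1 DMSO replicate 1 (-0.84, 0.0143) or AMO1 DMSO replicate 3 (-0.75, 0.037).

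Ordered by mean over the 6 groups, the genes fell into different patterns. ISG15 had its 3 AMO1 groups on top, and the lowest of them did not overlap the highest XG1 group. IRF1 had the same split by line, with AMO1 DMSO apart from the treated AMO1 groups and XG1 1000 nM apart from the group above it. IFIT1 and IFIT3 had XG1 DMSO on top and apart from the next group. STAT2 had XG1 100 nM on top and apart from the rest. For IRF9, IRF7, IFIT2 and IFI6 no neighbouring pair of groups was apart.

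The other genes of the pathway came from a list of 134 symbols, of which 130 were in the files and 91 could be tested. The ligands were nearly silent: in XG1 all 10 ligand genes in the files were below 1 FPKM in all 9 libraries, with a highest value of 0.308 FPKM. In AMO1 9 of 10 were, and the exception was IFNG, the gene of interferon gamma, singled out after its values were seen. It was measured at 2.36, 4.19 and 3.05 FPKM in AMO1 DMSO, with means of 2.39 ± 1.11 at 100 nM and 1.89 ± 0.428 at 1000 nM (SD, n = 3 each). T cell markers, from cells known to make interferon gamma, summed to at most 3.576 FPKM in AMO1, and their part in the IFNG level was not tested. Of 6 receptor genes, 5 were at 1 FPKM or more in every XG1 library and 6 in every AMO1 library.

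With treatment the called genes of this list were mostly lower, as were those of all genes at 1000 nM (1920 lower and 232 higher in XG1, 1874 lower and 217 higher in AMO1). At 100 nM, 3 of 91 fell in XG1 (3.3%, beside 3.98% of all tested genes) and 5 of 91 in AMO1 (5.49%, beside 1.76%), and none rose. The list's median change was -0.04 log2 in XG1, beside -0.01 over all tested genes, and -0.17 in AMO1, beside -0.09. At 1000 nM, 15 fell and 1 rose in XG1 (16.5% lower, beside 15.7% of all genes; median -0.12, beside -0.19), and 22 fell and none rose in AMO1 (24.2% lower, beside 15.4%; median -0.27, beside -0.18). The split by direction at 1000 nM changed with scaling. With each library centred on its median, 7 fell and 3 rose in XG1, beside 969 and 969 of all genes. In AMO1 9 fell and 2 rose, beside 815 and 1012 of all genes. With quantile normalization 8 fell and 6 rose in XG1 (all genes, 1209 and 1174), and 12 fell and 2 rose in AMO1 (all genes, 1011 and 861). With spike-in scaling 14 fell and 1 rose in XG1 (all genes, 1802 and 233), and 22 fell and 0 rose in AMO1 (all genes, 1884 and 211). At this dose more genes of the list fell than rose in both lines under each scaling, though spike-in scaling hardly changes the values. At 100 nM centring gave 8 lower and 1 higher in XG1 (all genes, 888 and 611) and 4 lower and 1 higher in AMO1 (all genes, 188 and 289). Centring moved the median of all genes at 1000 nM from -0.19 to 0.07 in XG1 and from -0.18 to 0.11 in AMO1. With spike-in scaling that median was -0.18 in XG1 and -0.19 in AMO1.

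In AMO1 at 1000 nM the called genes of every role were lower, beside 15.4% of all tested genes called lower. They were 4 of 6 in the role of IRF factors, which in this list includes the IRF2 partner IRF2BP2, 6 of 13 sensors and adaptors and 7 of 32 antiviral effectors. The others were 2 of 13 antigen presentation genes and 1 each of 6 receptors, 6 STAT factors and 11 negative regulators. The largest fall in the list was that of IRF2BP2, a corepressor partner of IRF2, from 19.6, 20.1 and 19.5 FPKM in DMSO to 8.79, 8.62 and 8.02 FPKM (-1.13 log2; limma, adjusted p = 9.06e-05). IFNAR1, a chain of the type I interferon receptor, went from 10.99 ± 2.78 to 4.45 ± 0.724 FPKM (-1.12, adjusted p = 8.34e-04). NLRC5, the transactivator of MHC class I genes, went from 5.80 ± 1.70 to 2.12 ± 0.414 FPKM (-1.10, adjusted p = 4.94e-04). These 3 calls held in all 28 alternatives. At 100 nM the named falls were PTPN6, a phosphatase that restrains JAK signalling (-0.93, adjusted p = 0.0213), TLR7, an endosomal sensor of RNA (-0.76, adjusted p = 0.0263), and SAMD9L, an antiviral effector (-0.74, adjusted p = 0.00519), by limma. Without AMO1 DMSO replicate 1 or 2, or 100 nM replicate 1 or 2, the calls of PTPN6 and TLR7 ended.

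In XG1 at 1000 nM the called genes were spread over 7 roles, with 4 antiviral effectors and 2 or fewer of any other role lower. PLSCR1, an interferon-induced lipid scramblase, went from 20.3, 18.6 and 16.2 FPKM in DMSO to 9.004, 4.50 and 9.58 FPKM (-1.21 log2; limma, adjusted p = 7.31e-04). IRF2BP2 fell from 24.3 ± 3.07 to 11.9 ± 2.32 FPKM (-0.99, adjusted p = 3.13e-04) and IRF2, a relative of IRF1 that competes for the same DNA letters, from 2.52 ± 0.626 to 0.947 ± 0.328 FPKM (-0.85, adjusted p = 0.00327). Each of these calls held in all 28 alternatives. The 1 gene that rose, LGALS9, a galectin, was named after its value was seen. It went from 1.01 ± 0.718 to 3.43 ± 2.12 FPKM with overlapping groups (adjusted p = 0.0490), and that call ended in 21 of 27 alternatives. At 100 nM IRF2BP2 fell by 0.68 log2 (adjusted p = 0.0135), PSMB9, an immunoproteasome subunit, by 0.78 (adjusted p = 0.0302) and TNFSF10, the death ligand TRAIL, by 0.77 (adjusted p = 0.0444). Their calls ended in 2 of 28, 7 of 28 and 16 of 27 alternatives, and all 3 ended without XG1 DMSO replicate 1 or without 100 nM replicate 1.

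**Figure D3:**
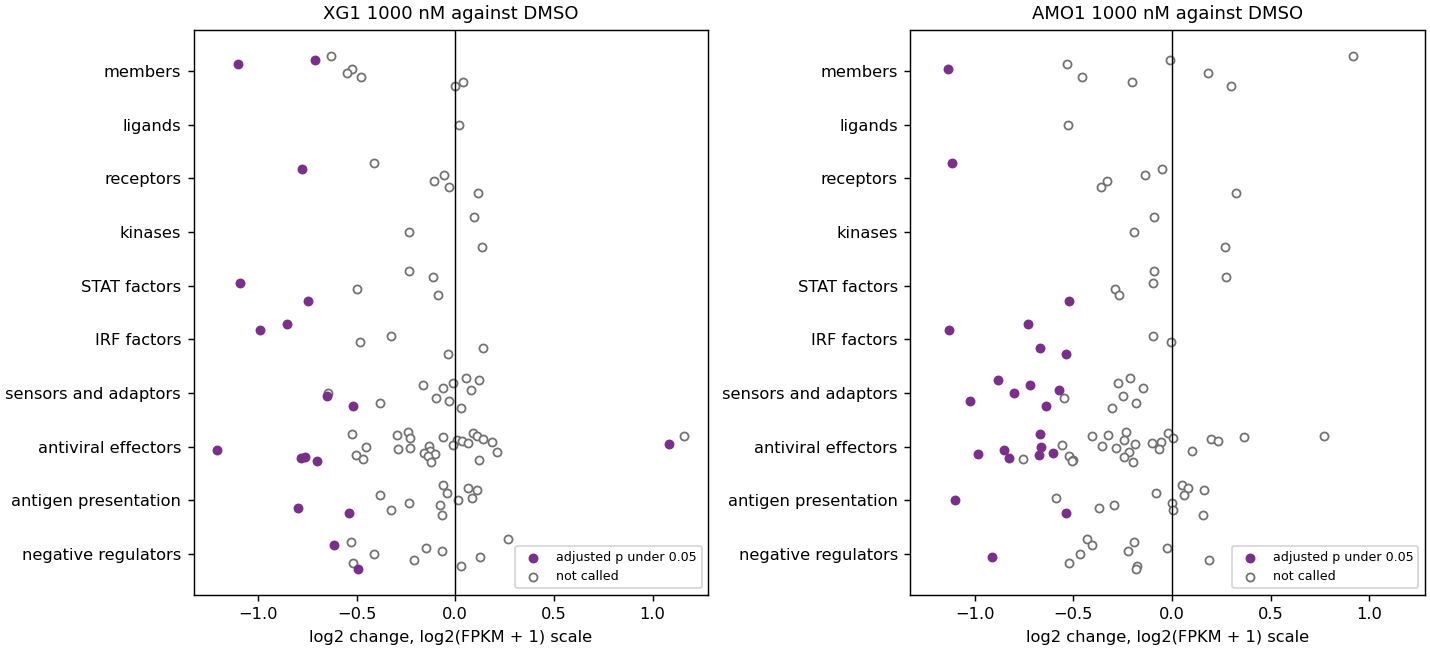
Change from DMSO on the log2(FPKM + 1) scale (x) of the tested genes of the interferon pathway list and of the 8 tested members (top row), grouped by role (y), at 1000 nM in XG1 (left) and AMO1 (right); points are genes, filled where the adjusted p was under 0.05. Called genes of the list lie below 0 in AMO1 (22 of 22) and, but for LGALS9, in XG1 (15 of 16). Median centring changes these splits to 9 of 11 and 7 of 10. Spike-in scaling, which hardly changes the values, gives 22 lower and 0 higher in AMO1 and 14 lower and 1 higher in XG1.

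Between the lines in DMSO, 21 of the 91 genes were higher in XG1 and 48 (52.7%) lower, where 28.3% of all tested genes were higher and 34.4% lower. The median of the list was -0.76 log2, beside -0.08 over all tested genes. The antigen presentation genes carried the widest gap, with 13 of 13 lower in XG1 and a median of -3.42. HLA-C stood at 0.958 ± 0.232 FPKM in XG1 and 226 ± 12.2 FPKM in AMO1 (SD, n = 3 each), a difference of -6.86 log2 (limma, adjusted p = 3.53e-15), and HLA-B differed by -7.84 log2 (adjusted p = 7.93e-16). The IFITM genes, whose proteins sit in membranes and block virus entry, went the other way. IFITM1 stood at 543 ± 7.37 against 7.89 ± 1.65 FPKM and IFITM2 at 434 ± 18.8 against 0.344 ± 0.234 FPKM, with IFITM3 at 53.2 ± 9.16 against 0.385 ± 0.274 FPKM (SD, n = 3 each). HLA-B, HLA-C and the IFITM genes belong to families of near-identical copies, so the authors' counting could have split reads among them and the single-gene values are uncertain.

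**Figure D4:**
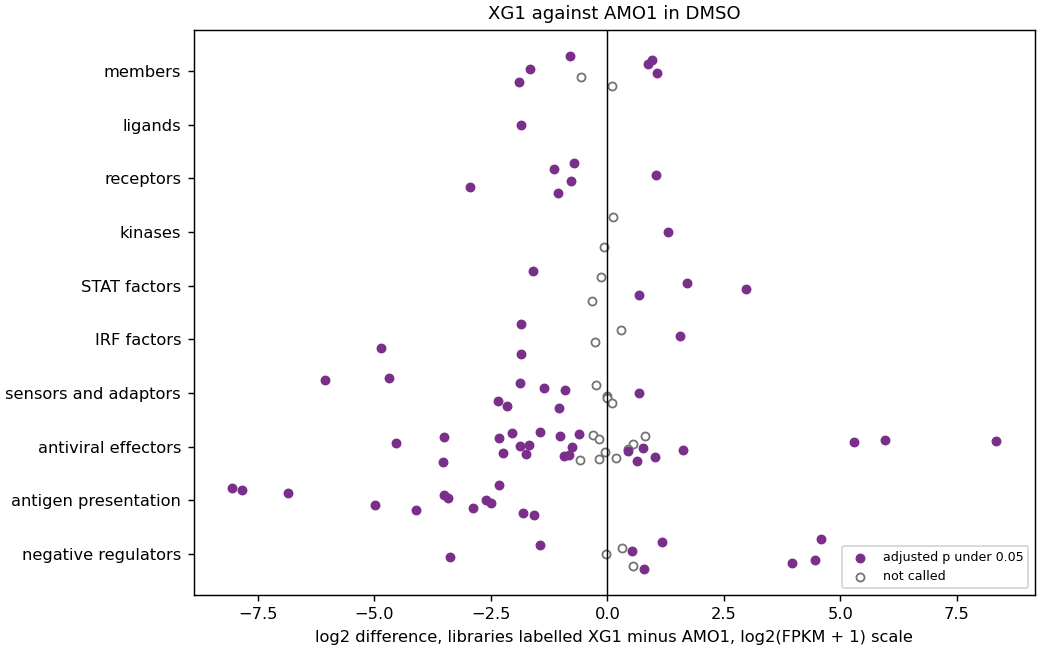
Difference between XG1 and AMO1 in DMSO on the log2(FPKM + 1) scale (x) of the tested genes of the interferon pathway list and of the 8 tested members (top row), grouped by role (y); points are genes, filled where the adjusted p was under 0.05. All 13 antigen presentation genes lie below 0, and the IFITM genes lie far above 0 among the antiviral effectors.

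Within a line, the members did not move as 1 block. Correlations were taken over the 9 libraries of a line, which share the line and its 3 dose groups. In XG1 that of IFIT1 with IFIT3 was 0.777, as was that of ISG15 with IFI6, and IRF9 with IFIT1 reached 0.740. IFIT1 and IFIT3 averaged over 1 FPKM only in XG1 DMSO and were included through that group. A shared step from DMSO to treatment was therefore partly built into their correlation. DMSO replicate 1 was the highest XG1 library for both IRF9 and IFIT1, at 2.68 and 2.53 FPKM, and its weight in their correlation was not tested. IFIT2 was left out in XG1, and IRF7 and all IFIT genes were left out in AMO1, as too low there. Among STAT2, IRF9, IRF1, ISG15 and IFI6 in AMO1, the highest was STAT2 with IFI6 at 0.873, followed by IRF9 with ISG15 at 0.774. The lowest correlations were -0.288 in XG1, for STAT2 with IFIT1, and -0.560 in AMO1, for IRF1 with IFI6. Other tested genes were then ranked by likeness to a member, leaving out the members, small RNAs and uncharacterised loci. Those whose values ran most like STAT2 were SESN1, SFT2D3 and TAX1BP3, with Pearson correlations of at least 0.879, 0.861 and 0.848 in each line. For IRF1 they were TPM3P9, PLCD4 and MALSU1 (0.888, 0.884 and 0.872), and for ISG15 MGAT4B, EEF2KMT and TCP10L (0.841, 0.796 and 0.795). In AMO1 alone IFI6 ran most like ZNF267 (0.982), ZFR (0.975) and PPM1D (0.970), and IRF9 most like TMEM170A (0.947). In XG1 alone IRF7 ran most like KLK1 (0.960). The IFIT genes were not ranked, because neither line held them at a mean of 1 FPKM or more in all 3 of its groups. With 9 libraries and candidates drawn from 12204 tested genes such values are a description only.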

How the data were processed

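Expression was measured by QuantSeq 3′ RNA-seq in 18 libraries, 3 in each of 6 groups. The deposited values are FPKM: the authors aligned reads with HISAT2 to hg19 and normalized with Cuffnorm, per the submitters' processing notes. The file header says only that the column holds expression, so the unit follows from Cuffnorm. For tool versions, annotation, strand handling and read counts: not given in the sources used here. Depth is therefore unknown, and no counting interval is given. Dividing by transcript length does not suit reads from 3′ ends, so levels are compared between libraries and not between genes. The commonest low value of a library was 0.0745 to 0.1335 FPKM, which acts as a floor. The lowest value of a library was 0.0614 to 0.1208 FPKM, and no value is 0. The libraries held 9284 to 10571 genes at 1 FPKM or more, and the median deviation of 44 ERCC spike-in RNAs was -0.078 to 0.073 log2. The genes of a library summed to 741443 to 2072842 FPKM, with every AMO1 library above every XG1 library. How the libraries were scaled to each other is not given beyond the name Cuffnorm. The values lie close to a spike-in scale, since the spike-in medians nearly agreed between libraries while the gene totals did not. Centring takes out any shift shared by most genes of a library. Line differences and the centred results therefore depend on which scale is used.

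Groups came from the labels. Values were tested as log2(FPKM + 1) in 1 limma fit (version 3.58.1, R 4.3.3, trend and robust estimation) of all 18 libraries, two-sided, with 9 comparisons and Benjamini-Hochberg adjustment over 12204 genes with a group mean of at least 1 FPKM. A call is an adjusted p under 0.05. The fit was tried on simulated data without the filter, with changes set only in genes well above the floor. That trial says nothing of genes near the floor, such as the IFIT genes. The members and lists were chosen with earlier results of these data known. Named are the 9 members and, per comparison and direction, up to 3 called pathway genes with the largest change and no overlap of groups; 1 gene that this rule names is not reported here. Genes most like a member were ranked by Pearson correlation within a line, for members at a mean of 1 FPKM or more in all 3 of its groups. Promoters are RefSeq windows in GRCh38.p14, matched by symbol, and no coordinate of the hg19 files was used. Alternatives were the pseudocount, the filter, 3 scalings, the libraries fitted, the limma settings, a replicate block and leaving out each library.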

Additional observations from a re-analysis of the deposited data

Results flagged for a closer look

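SAMD9L, an antiviral effector of the interferon pathway list, was the one gene of that list whose response to 1000 nM differed between the lines in the interaction term of the limma fit, at 0.88 ± 0.19 log2 (SE), XG1 minus AMO1 (adjusted p = 0.0342). It went from 2.91 ± 0.177 to 0.975 ± 0.0499 FPKM in AMO1 and from 0.171 ± 0.0188 to 0.0917 ± 0.0170 FPKM in XG1 (SD, n = 3 each). The XG1 values lay at or near the floor of the files, where no fall could be seen, and the call ended in 14 of 27 alternatives, with adjusted p-values up to 0.444.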

How the results depend on the processing

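Every tested member was recomputed in all 9 comparisons under up to 28 alternatives, together with the named pathway genes (LGALS9 was added after its value was seen). The 32 results that were called kept direction and call in 781 fits, lost the call in 100 and reversed in 0. The 60 that were not called kept their side in 1562 fits, gained a call in 17 and changed sign in 55. The cause of these changes was not tested, except that a minimum of 5 FPKM takes the IFIT genes, IRF7 and IRF9 out of the test.

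With a group mean of at least 5 FPKM only STAT2, IRF1, ISG15 and IFI6 stayed in the test, so the IFIT genes called in XG1 were gone. Of those that stayed, 0 were called in XG1 at 100 nM and 0 at 1000 nM. In AMO1 2 were called at 1000 nM, and 3 were called between the lines. Fits of the compared groups alone called 1 member in XG1 at 100 nM, 1 in XG1 at 1000 nM, 0 in AMO1 at 100 nM and 2 in AMO1 at 1000 nM. Median centring called 1 in XG1 at 1000 nM and 3 in AMO1 at 1000 nM, quantile normalization 0 in AMO1 at 100 nM and 3 at 1000 nM, a pseudocount of 5 called 2 in AMO1 at 1000 nM, and a pseudocount of 0.1 and no filter each called 0 in AMO1 at 100 nM. Leaving out 1 library gave 1 to 2 in XG1 at 100 nM, 1 to 3 in XG1 at 1000 nM (3 without AMO1 DMSO replicate 3), 0 to 1 in AMO1 at 100 nM and 1 to 2 in AMO1 at 1000 nM.

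Replicate numbers did not pair the libraries: the same-number correlations of deviations from group means ran from -0.052 to 0.032 in XG1 and from -0.124 to 0.091 in AMO1, with 0 of 9 over 0.1 in each. With the replicate block, 0 members were called in AMO1 at 100 nM (IRF1 -0.87, adjusted p = 0.0726), and IFI6 between the lines in DMSO lost its call (adjusted p = 0.0535); no other member changed. Over all alternatives the share of all genes called ran from 2.13 to 15.4% in XG1 at 100 nM, 5.92 to 22.9% in XG1 at 1000 nM, 0.598 to 7.99% in AMO1 at 100 nM, 6.04 to 24.9% in AMO1 at 1000 nM and 29.7 to 68.4% between the lines, and was at most 2.54% between doses and 1.77% in the line differences.

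Signs of uncalled members changed as follows (log2). Median centring gave STAT2 0.258 in XG1 at 1000 nM; IRF9 0.021, IFIT1 0.153 and ISG15 0.13 in AMO1 at 100 nM; IFIT1 0.285 and ISG15 0.09 in AMO1 at 1000 nM; and between doses IRF9 0.053, IRF7 0.033 and ISG15 0.018 in XG1 and IRF7 0.06 in AMO1. Quantile normalization gave STAT2 0.251 in XG1 at 1000 nM, IRF9 0.026 and ISG15 0.001 in AMO1 at 100 nM, IFIT1 0.005 and ISG15 0.026 in AMO1 at 1000 nM, and between doses IRF9 0.009 in XG1 and ISG15 0.025 in AMO1. A pseudocount of 5 gave STAT2 0.002 in XG1 at 1000 nM and IRF9 0.031 in the line difference at 1000 nM, and spike-in scaling gave STAT2 0.011. Leaving out 1 library changed the sign of these results, with their ranges: XG1 100 nM, IRF1 -0.287 to 0.003, IFI6 -0.079 to 0.683; XG1 1000 nM, STAT2 -0.144 to 0.189, ISG15 -0.143 to 0.265; AMO1 100 nM, IRF9 -0.363 to 0.063, IFIT1 -0.08 to 0.049, ISG15 -0.233 to 0.058; AMO1 1000 nM, IRF7 -0.011 to 0.361, IFIT1 -0.065 to 0.064; XG1 between doses, IFIT3 -0.109 to 0.24; AMO1 between doses, IRF7 -0.164 to 0.124, IFIT1 -0.023 to 0.069; line difference at 100 nM, IRF9 -0.394 to 0.141, IFI6 -0.526 to 0.236; line difference at 1000 nM, IRF9 -0.292 to 0.244.

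Pathway genes called moved by over 1.5 times too, as did the shares of all genes given above. In XG1 at 100 nM the calls over all genes went from 321 higher and 486 lower to 611 and 888 with centring. With quantile normalization they were 892 and 986. Of the pathway genes in XG1 at 100 nM, the 3 became 9 with centring, 8 with quantile normalization, 6 with the compared groups alone and 1 with no filter or the block. Without 1 library they ranged from 0 (XG1 DMSO replicate 1) to 6. In XG1 at 1000 nM the 16 became 10 with centring, 9 with no filter and 7 with the compared groups alone, and 5 to 18 without 1 library (XG1 DMSO replicate 1, 5; replicate 2, 8; 1000 nM replicate 1, 10; replicate 2, 7). In AMO1 at 100 nM the 5 became 0 to 8 over the other settings and 1 to 10 without 1 library (DMSO replicate 1, 1; replicate 2, 2; replicate 3, 10; 100 nM replicates 1 and 2, 1 each). In AMO1 at 1000 nM the 22 became 11 with centring and 14 with quantile normalization, and 11 to 27 without 1 library (DMSO replicate 1, 13; 1000 nM replicate 1, 11). In the line difference at 1000 nM the 1 became 0 to 6, at 100 nM the 0 became 1 with a pseudocount of 5, and between doses in XG1 the 0 became 2 without 1000 nM replicate 3. Unknown depth limits what can be said of genes near the floor, above all the IFIT genes and IRF7 in AMO1.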
